A study of Homo sapiens with 8 samples.

Results

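The genes described here are 10 named components of insulin-like growth factor (IGF) and insulin signalling, taken as a fixed list of symbols. They are the receptors IGF1R, IGF2R and INSR, the adaptors IRS1 and IRS2, and the binding proteins IGFBP2, IGFBP3, IGFBP4, IGFBP6 and IGFBP7. The list was chosen with earlier results of these data known, so the shares of it that were called are descriptive only. All 10 were found among the 56632 genes of the count table, and all 10 passed the filter on low counts, which kept 18431 genes. RNA was poly A+ selected and sequenced from 4 related human mammary epithelial cell lines grown as acini in Matrigel for 8 days, with 2 biological replicates per line and 8 libraries in all. M1 is MCF10A, an immortalized line that does not form tumors. M2 (MCF10AT1k.cl2) was made from MCF10A by introducing activated HRAS and selecting in xenografts. M3 (MCF10Ca1h) and M4 (MCF10CA1a.cl1) came from carcinomas that arose in M2 xenografts. Both are tumorigenic in mice, and M4 is the metastatic line of the series. Each line is a single derivation, so a difference between lines cannot be told apart from a difference between these particular isolates. All 4 media held 2% horse serum, hydrocortisone, cholera toxin and insulin, the last of these a ligand of INSR. The medium of M1 and M2 also held EGF at 10 ng/ml, and that of M3 and M4 held 0 ng/ml, so the effects of line and of EGF cannot be told apart in any comparison of M3 or M4 with M1 or M2. M4 and M3 shared a medium, as did M2 and M1.

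IGF1 and IGF2 are secreted growth factors that bind the receptor tyrosine kinase encoded by IGF1R, and insulin binds the closely related kinase encoded by INSR. Both kinases phosphorylate the docking proteins IRS1 and IRS2, which recruit PI3 kinase and through it AKT, and AKT holds FOXO transcription factors out of the nucleus. IGF2R has no kinase. It is the cation-independent mannose 6-phosphate receptor, which takes IGF2 to lysosomes and also carries lysosomal enzymes. The IGF binding proteins are secreted, hold IGFs away from the receptors or deliver them, and are cut by extracellular proteases. In mammary epithelium this system is known for growth and survival signals, and IRS1 and IRS2 have been linked to different behaviours of breast cancer cells.

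Counts of single libraries are given as CPM, the count scaled to library size, and levels of different genes are compared only as RPKM, which also divides by transcript length. Total counts ran from 69669970 to 107350344 per library. A gene was called when its adjusted p was under 0.05 by edgeR's quasi-likelihood test over all genes and its fitted change was more than 2-fold. Basal markers (6 of 6) and luminal or general epithelial markers (5 of 5) were detected. Of 7 fibroblast markers, 2 (COL1A1 and DCN) reached 1 CPM in any library and COL1A2 was at 0. Their summed level ran from 9.36 to 60.2 CPM in M1, from 72.7 to 74.7 in M2, from 10.1 to 16.1 in M3 and from 6.43 to 7.6 in M4. Of 3 endothelial markers in the table, KDR reached 1 CPM, at 2.33 and 3.04 CPM in M1, 1.76 and 1.18 in M3 and at most 0.187 in M2 and M4. No leukocyte or adipocyte marker reached 1 CPM. HRAS was at 154.1 and 138.7 CPM (M1), 159.8 and 153.5 (M2), 269.3 and 327.1 (M3) and 335.2 and 352.4 (M4). The M1 and M2 libraries overlapped (log2 difference 0.10, adjusted p = 0.736, edgeR), so total HRAS mRNA did not mark M2, the line that received activated HRAS, at this spread.

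The libraries differed in 2 ways that touch the results. The M2 replicates were far closer than those of any other line: 4.05% of 15823 genes differed more than 2-fold between them, against 12.9% in M1, 10.5% in M3 and 9.24% in M4. The tests used a spread shared by all lines, so this close pair also entered the comparisons without M2. The study names the replicates biological, and whether the M2 pair came from separate cultures could not be checked. The sample labels and the study's own expression table also assign 2 libraries differently, and which assignment is right was not settled here. Over 147 genes, its column for M1 replicate 2 matched the library labelled M2 replicate 1 (r = 0.978, against -0.068 for the library of the same label), and its column for M2 replicate 1 matched the library labelled M1 replicate 2 (r = 0.985, against -0.017). The other 6 columns matched the library of their own label (r of 0.979 to 0.987). The sample labels were followed here, and the calls that were lost with those libraries exchanged are named with each result.

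Among the 10 genes, those called against M1 were the adaptors and IGFBP2. IRS2 was higher and IRS1 lower in M3 and in M4, and IGFBP2 was higher in M3. In bulk RNA, a change in the share of cells that express a gene and a change in the RNA per cell cannot be told apart. In M3 against M1, 3 of the 10 genes were called (30%), 2 higher and 1 lower, beside 13.5% of all tested genes (8.02% on the higher side, 5.51% on the lower). For M4 against M1, 2 of the 10 were called (20%, beside 20.7% of all genes, 9.48% higher and 11.2% lower), a share at the level of the background. In M2 against M1, edgeR called 0 of the 10, beside 3.37% of all genes (2.26% higher and 1.11% lower), with 0 at an unadjusted p under 0.05 and 0 called by DESeq2. Against M2, M3 had 3 of the 10 called (4.15% of all genes, 2.95% higher and 1.2% lower) and M4 had 3 (13.9% of all genes, 6.98% higher and 6.94% lower). In M4 against M3, 3 of the 10 were called, 1 higher and 2 lower (10.3% of all genes, 3.99% higher and 6.3% lower). These comparisons share libraries, so their counts do not stand apart from each other.

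**Figure D1:**
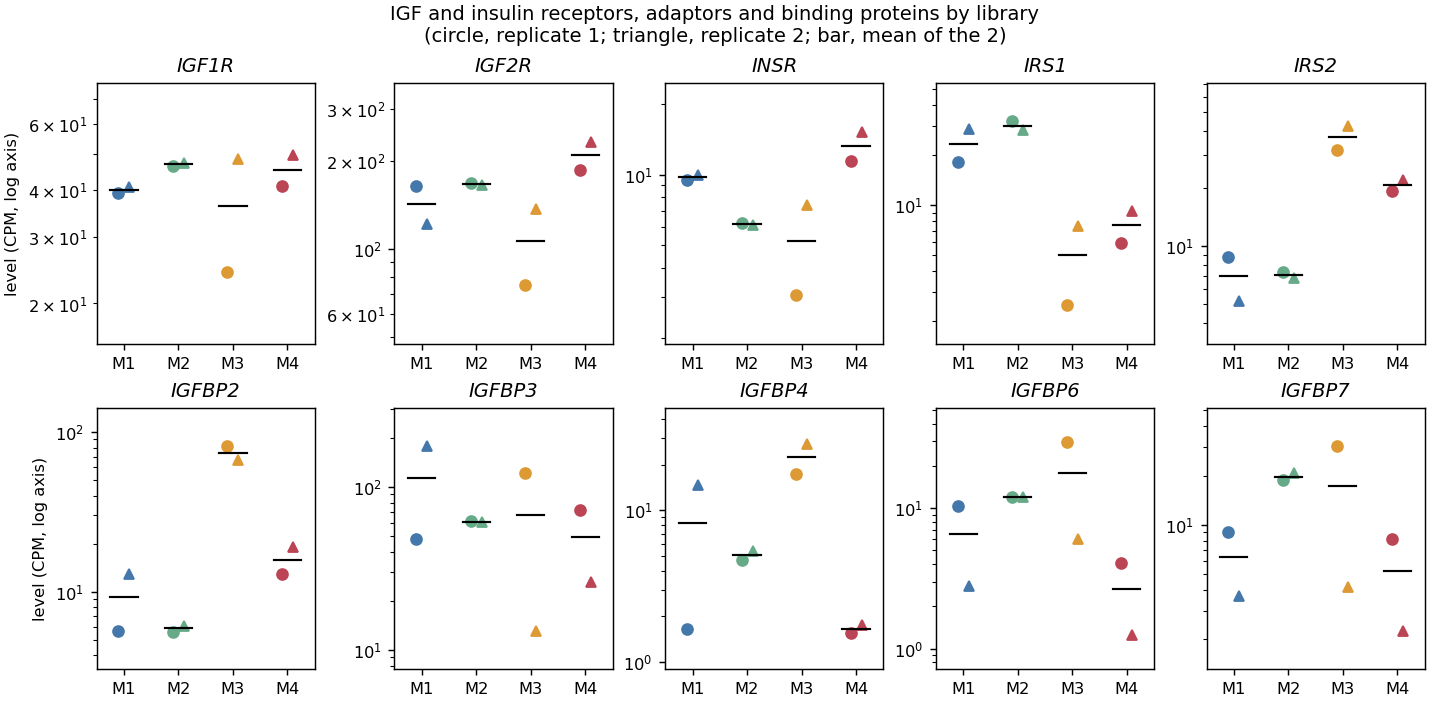
Level of each gene in each library, in CPM on a log axis that differs between panels, with circles for replicate 1, triangles for replicate 2 and bars for the mean of the 2. IRS1 sat between 2.49 and 9.25 CPM in the M3 and M4 libraries, below every M1 and M2 library, while IRS2 lay between 19.5 and 42.4 CPM there, above all of them. The replicates of IGFBP3, IGFBP6 and IGFBP7 lay far apart in M1, M3 and M4.

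IGF1R, the main signalling receptor for both IGFs, lies on chromosome 15 from 99191768 to 99507759 (GRCh37, plus strand), and its canonical transcript has 21 exons. It was measured at 39.4 and 40.9 CPM (M1), 46.4 and 47.3 (M2), 24.3 and 48.5 (M3) and 41.1 and 49.5 (M4). The levels of M1, M2 and M4 lay close together, and the lowest and a near-highest value both came from M3. By line mean the order was M2, M4, M1, M3, and no neighbours in it differed by the test. Across the 6 comparisons the fitted log2 difference lay between -0.36 and 0.32, and the lowest adjusted p was 0.476 (edgeR). In M4 against M1 it was 0.17 ± 0.285 (SE). The comparisons with M3 turned on single libraries. With 1 library left out, the difference ran from -0.719 to 0.282 in M3 against M1. It then ran from -0.946 to 0.055 in M3 against M2 and from -0.105 to 0.896 in M4 against M3.

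INSR, the insulin receptor, lies on chromosome 19 from 7112266 to 7294425 (minus strand, 22 exons). Its level was 9.52 and 9.98 CPM (M1), 6.24 and 6.08 (M2), 3.07 and 7.38 (M3) and 11.5 and 15.2 (M4). M4 held the 2 highest values, and the M3 and M2 libraries overlapped. INSR was 2.55-fold higher in M4 than in M3 (log2 1.35 ± 0.384 SE, adjusted p = 0.0497, edgeR), the call nearest the threshold among the 10 genes. The call was lost without M3 replicate 1 (0.85, adjusted p = 0.0923), without M4 replicate 1 (1.54, adjusted p = 0.118), without M4 replicate 2 (1.15, adjusted p = 0.196), with the 2 lines fitted alone, without the M2 libraries and with the libraries exchanged (adjusted p from 0.000224 to 0.196 over all alternatives). Against M1, INSR differed by -0.90 in M3 (adjusted p = 0.13) and 0.45 in M4 (adjusted p = 0.403), and neither passed. Without M3 replicate 2, INSR was called lower in M3 than in M1 (-1.66, adjusted p = 0.0149).

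IGF2R lies on chromosome 6 from 160390114 to 160534539 (plus strand, 48 exons). Its level was 163.2 and 122.0 CPM (M1), 167.9 and 165.5 (M2), 75.3 and 137.1 (M3) and 185.3 and 231.6 (M4). Every M4 library lay above every library of the other lines. The log2 difference of M4 and M3 was 0.97 ± 0.283 (SE), with an adjusted p of 0.0525 (edgeR), and it did not pass. Without M3 replicate 2 it was 1.47 and passed (adjusted p = 0.0157). The order by line mean was M4, M2, M1, M3. Per transcript length IGF2R was the most abundant of the receptors, at a mean of 11.1 RPKM over the libraries, with 3.45 RPKM for IGF1R and 0.910 RPKM for INSR. The ratio of IGF2R to IGF1R per length stayed between 2.46 and 4.07 in the 8 libraries. The ratio of IGF1R to INSR was 3.2 and 3.17 (M1), 5.75 and 6.02 (M2), 6.12 and 5.08 (M3) and 2.77 and 2.53 (M4). M2 and M3 thus had the higher ratios in all of their libraries, and M4 the lowest.

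IRS1, a docking protein for both receptor kinases, lies on chromosome 2 from 227596028 to 227664536 (minus strand, 2 exons). It was measured at 18.2 and 28.9 CPM (M1), 32.0 and 28.5 (M2), 2.49 and 7.5 (M3) and 5.94 and 9.25 (M4). The M1 and M2 libraries overlapped, as did those of M3 and M4, and the 2 pairs of lines did not. IRS1 was 4.71-fold lower in M3 than in M1 (log2 -2.24 ± 0.502 SE, adjusted p = 0.0199, edgeR). It was 3.11-fold lower in M4 than in M1 (-1.64 ± 0.491 SE, adjusted p = 0.0389). Against M2 the difference was -2.60 in M3 (adjusted p = 0.031) and -2.0 in M4 (adjusted p = 0.027). M4 and M3 differed by 0.60 ± 0.486 (adjusted p = 0.422), and by 1.61, a call, without M3 replicate 2 (adjusted p = 0.0472).

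The direction of IRS1 held in all alternatives for these 4 comparisons, while the calls did not. Without M1 replicate 2 the difference from M1 was -1.86 in M3 (adjusted p = 0.0649) and -1.26 in M4 (adjusted p = 0.152), and with the libraries exchanged it was -2.33 (adjusted p = 0.0901) and -1.73 (adjusted p = 0.0795). The call in M4 against M1 was also lost without M4 replicate 1 (-1.34, adjusted p = 0.187), without M4 replicate 2 (-1.97, adjusted p = 0.0994) and without both M2 libraries (-1.64, adjusted p = 0.0719), and that in M3 against M1 with the 2 lines fitted alone (-2.24, adjusted p = 0.0718). Over all alternatives the adjusted p ran from 1.22e-15 to 0.0901 for M3 and from 3.98e-09 to 0.187 for M4 against M1.

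IRS2, the other docking protein, lies on chromosome 13 from 110405042 to 110438930 (minus strand, 2 exons). Its level was 8.81 and 5.18 CPM (M1), 7.33 and 6.84 (M2), 31.8 and 42.4 (M3) and 19.5 and 22.1 (M4). Both M3 libraries were above both M4 libraries, and these were above all libraries of M1 and M2. IRS2 was 5.30-fold higher in M3 than in M1 (log2 2.41 ± 0.278 SE, adjusted p = 0.00168, edgeR) and 2.97-fold higher in M4 (1.57 ± 0.271 SE, adjusted p = 0.00474). Both calls held in all 11 alternatives, over which the difference ran from 2.08 to 2.85 in M3 and from 1.24 to 2.02 in M4. The order by line mean was M3, M4, M2, M1. M4 and M3 differed by -0.84 (adjusted p = 0.0674) and M2 and M1 by 0.018 (adjusted p = 0.979), so neither pair of neighbours differed by the test.

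The calls of IRS1, IRS2 and IGFBP2 against M2 rested on having both M2 libraries. IRS2 differed from M2 by 2.39 in M3 (adjusted p = 0.00497) and 1.55 in M4 (adjusted p = 0.00715). Without M2 replicate 1 these were 2.44 (adjusted p = 0.0634) and 1.60 (adjusted p = 0.0609), and without M2 replicate 2 they were 2.34 (adjusted p = 0.0668) and 1.5 (adjusted p = 0.0697). IRS1 was then at -2.51 and -1.91 without M2 replicate 1 (adjusted p = 0.193 and 0.138), and at -2.68 and -2.08 without M2 replicate 2 (adjusted p = 0.171 and 0.113). With either M2 library left out, edgeR called none of the 10 genes in M3 or M4 against M2. IRS1 in M3 against M2 was also lost without M3 replicate 1 (-2.01, adjusted p = 0.0514) and with the 2 lines fitted alone (-2.59, adjusted p = 0.0632), and in M4 against M2 without M4 replicate 1 (-1.71, adjusted p = 0.153) or M4 replicate 2 (-2.33, adjusted p = 0.0823). With the libraries exchanged, IRS1 was at -2.52 in M3 (adjusted p = 0.0842) and -1.92 in M4 (adjusted p = 0.055) against M2.

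Per transcript length, the more abundant adaptor mRNA was IRS1 in every M1 and M2 library and IRS2 in every M3 and M4 library. The ratio of IRS2 to IRS1 was 0.58 and 0.215 (M1), 0.274 and 0.288 (M2), 15.3 and 6.78 (M3) and 3.92 and 2.87 (M4). The 2 groups of lines did not overlap, and this split was also that of medium with and without EGF.

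**Figure D2:**
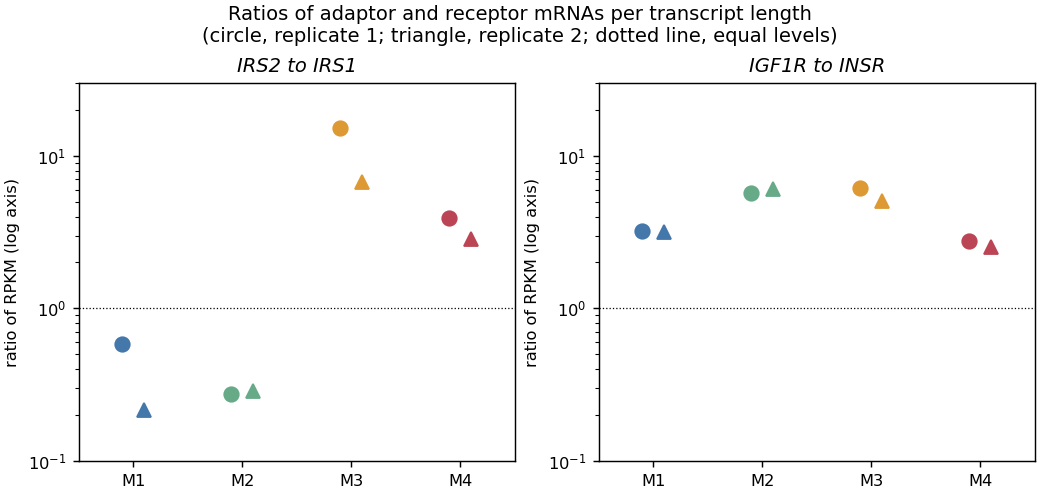
Ratio of IRS2 to IRS1 (left) and of IGF1R to INSR (right) in RPKM for each library, on a log axis, with circles for replicate 1 and triangles for replicate 2. The IRS2 to IRS1 ratio was at most 0.58 in the M1 and M2 libraries and at least 2.87 in those of M3 and M4, while IGF1R was above INSR in all 8 libraries.

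IGFBP2, a binding protein with a preference for IGF2, lies on chromosome 2 from 217497551 to 217529159 (plus strand, 4 exons), next to IGFBP5. It was measured at 5.68 and 13.0 CPM (M1), 5.62 and 6.13 (M2), 82.3 and 66.5 (M3) and 12.8 and 18.9 (M4). M3 stood above all other libraries, and M4 overlapped M1. IGFBP2 was 7.98-fold higher in M3 than in M1 (log2 3.00 ± 0.389 SE, adjusted p = 0.00274, edgeR), and this call held in all 11 alternatives, with differences of 2.52 to 3.72. It was 12.7-fold higher in M3 than in M2 (3.66, adjusted p = 0.00405), with 3.60 (adjusted p = 0.0662) without M2 replicate 1 and 3.73 (adjusted p = 0.0619) without M2 replicate 2.

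M4 had less IGFBP2 than M3, by 4.69-fold (log2 -2.23 ± 0.377 SE, adjusted p = 0.0101, edgeR). That call was lost without M4 replicate 1 (-1.97, adjusted p = 0.0761). M4 was above M2 by 1.43 (adjusted p = 0.0307), a call lost with the libraries exchanged (0.73, adjusted p = 0.218), without M2 replicate 1 (1.37, adjusted p = 0.179), M2 replicate 2 (1.5, adjusted p = 0.152), M4 replicate 1 (1.69, adjusted p = 0.0581) or M4 replicate 2 (1.15, adjusted p = 0.138). Against M1, M4 differed by 0.77 (adjusted p = 0.149). Without M1 replicate 2 that difference was 1.48 (adjusted p = 0.0131), and with the libraries exchanged 1.49 (adjusted p = 0.0448), both called.

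IGFBP4, a binding protein that the protease PAPPA cleaves, lies on chromosome 17 from 38599702 to 38613977 (plus strand, 4 exons). Its level was 1.64 and 14.8 CPM (M1), 4.71 and 5.4 (M2), 17.4 and 27.2 (M3) and 1.56 and 1.76 (M4). Both M3 libraries were above all others, and the M1 libraries differed 8.94-fold, a ratio that 1.39% of 15823 genes reached between those libraries. IGFBP4 was 13.5-fold lower in M4 than in M3 (log2 -3.75 ± 0.895 SE, adjusted p = 0.0314, edgeR). The value ran from -4.04 to -3.39 in the alternatives, and the call was lost without M3 replicate 1 (-4.04, adjusted p = 0.0726), M3 replicate 2 (-3.39, adjusted p = 0.0876), M4 replicate 1 (-3.66, adjusted p = 0.16), M4 replicate 2 (-3.82, adjusted p = 0.14) or both M2 libraries (-3.75, adjusted p = 0.07).

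The comparisons of IGFBP4 with M1 turned on which M1 library was used. With both, the log2 difference was 1.44 in M3 (adjusted p = 0.242), -2.31 in M4 (adjusted p = 0.0767) and -0.70 in M2 (adjusted p = 0.651). Without M1 replicate 2 these were 3.77 (adjusted p = 0.00247), 0.011 (adjusted p = 0.99) and 1.62 (adjusted p = 0.0485). Without M1 replicate 1 they were 0.60 (adjusted p = 0.253), -3.14 (adjusted p = 0.00116) and -1.55 (adjusted p = 0.047). M2 was therefore called above or below M1 depending on the M1 library left out.

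IGFBP3, the binding protein that carries most IGF in blood, lies on chromosome 7 from 45951844 to 45961473 (minus strand, 5 exons). It had 48.0 and 178.3 CPM (M1), 61.6 and 61.1 (M2), 122.4 and 13.1 (M3) and 72.4 and 26.0 (M4). The replicates differed 3.72-fold in M1, 9.36-fold in M3 and 2.78-fold in M4, and all 6 pairs of lines overlapped. In M3 only 0.689% of 15823 genes differed as much between the replicates. The fitted difference of M4 and M1 was -1.20 with a standard error of 1.007 (adjusted p = 0.404, edgeR), so a change of 2-fold in IGFBP3 was about the size of 1 standard error. In M4 against M1 it was 0.035 without M1 replicate 2.

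IGFBP6, another binding protein with a preference for IGF2, lies on chromosome 12 from 53491220 to 53496129 (plus strand, 4 exons). Its level was 10.4 and 2.81 CPM in M1, 12 in both M2 libraries, 29.5 and 6.01 in M3, and 4.10 and 1.26 in M4. M4 lay below M2 and M3 in every library. The log2 difference from M3 was -2.72 ± 0.934 (adjusted p = 0.0878, edgeR) and from M2 -2.15 ± 0.916 (adjusted p = 0.134), and neither passed. DESeq2 called the difference from M3, and the fit without a filter on low counts called both. The 2 lines fitted alone called M4 against M2 (-2.13, adjusted p = 0.0346).

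IGFBP7, which binds IGFs weakly, lies on chromosome 4 from 57896939 to 57976551 (minus strand, 5 exons). It was at 9.05 and 3.70 CPM (M1), 18.7 and 20.6 (M2), 30.2 and 4.20 (M3) and 8.20 and 2.26 (M4). Both M2 libraries lay above M1 and M4, inside the range of M3. Its largest fitted differences were -1.90 ± 0.946 for M4 against M2 (adjusted p = 0.188) and -1.71 ± 0.941 for M4 against M3 (adjusted p = 0.247, edgeR). The gene shares 386 bases of its span with POLR2B on the other strand, which was at 167.3 to 181.6 CPM, and the strand setting of the counting is not given in the sources used here, so its counts are uncertain. In M1, M3 and M4, both IGFBP6 and IGFBP7 were higher in replicate 1, by 3.25-fold to 4.90-fold for IGFBP6 and 2.45-fold to 7.17-fold for IGFBP7. COL1A1 and DCN were the fibroblast markers that reached 1 CPM. They were also higher in replicate 1 of M1 and M4, but were higher in replicate 2 of M3. Fibroblast markers below 1 CPM were mixed. PDGFRA was at 0.0967 and 0.732 CPM in M1, and PDGFRB at 0.471 and 0.268 in M1 and 0.0793 and 0.346 in M4. COL1A1 was at 25.5 and 6.71 CPM (M1), 8.43 and 13.15 (M3) and 7.31 and 6.07 (M4). The part of fibroblast markers in the IGFBP6 and IGFBP7 values was not tested.

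**Figure D3:**
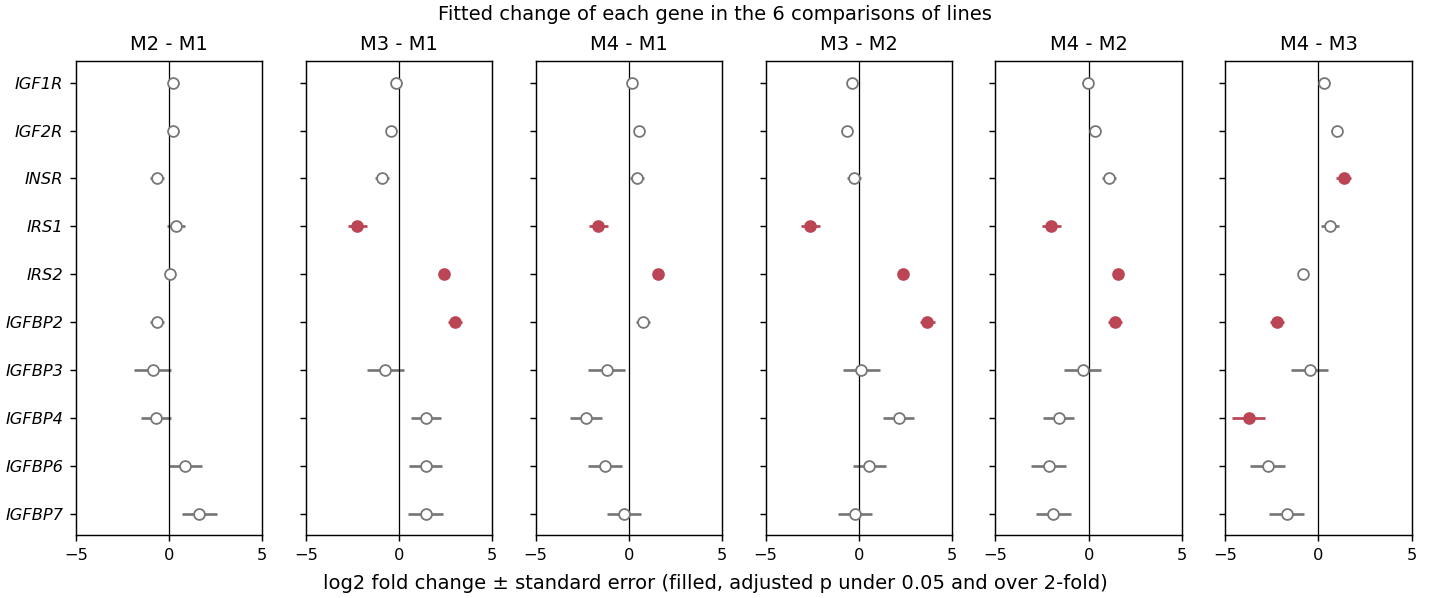
Fitted log2 fold change of each gene with its standard error in the 6 comparisons, first line minus second, with filled points for calls. IRS1 lay below 0 and IRS2 above 0 in all 4 comparisons of M3 or M4 with M1 or M2, and the error bars of IGFBP3, IGFBP4, IGFBP6 and IGFBP7 were the widest.

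Libraries of the compared lines did not overlap for 5 of the 10 genes in M2, M3 and M4 against M1, where this held for 61.0%, 59.4% and 67.3% of all tested genes. They did not overlap for 5 genes in M3 against M2 (59.0%), for 8 in M4 against M2 (73.0%) and for 6 in M4 against M3 (60.2%). The median absolute log2 difference of the 10 genes was 0.66 in M2 against M1, 1.43 in M3 against M1 and 0.98 in M4 against M1, and that of all tested genes 0.39, 0.54 and 0.62.

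Per transcript length, IGFBP2 and IGFBP3 were together the larger part of the binding protein mRNA in every library of M1, M3 and M4. IGFBP2 was 9.83% and 10.0% of the summed RPKM of IGFBP1 to IGFBP7 (M1), 7.05% and 7.46% (M2), 35.0% and 61.4% (M3) and 19.1% and 49.5% (M4). IGFBP3 was 44.9% and 74.8% (M1), 41.9% and 40.2% (M2), 28.2% and 6.54% (M3) and 58.2% and 36.8% (M4). The share of IGFBP2 was higher in every M3 and M4 library than in any M1 or M2 library, while that of IGFBP3 was lowest in both M3 libraries. The summed RPKM was 40.9 and 91.3 (M1), 56.3 and 58.1 (M2), 166.0 and 76.5 (M3) and 47.6 and 27.0 (M4). In M2, IGFBP6 gave 22.5% and 21.7% and IGFBP7 23.3% and 24.8%. IGFBP1 was at 0 counts in all but 1 library. These shares rest on the canonical transcript lengths. With the length of all exons of each gene, the mean level of IGFBP2 fell from 18.6 to 5.56 RPKM and that of IGFBP3 from 27.9 to 16.0. By that length, IGFBP2 and IGFBP3 were together no longer the larger part in M1 replicate 1 or in M3.

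**Figure D4:**
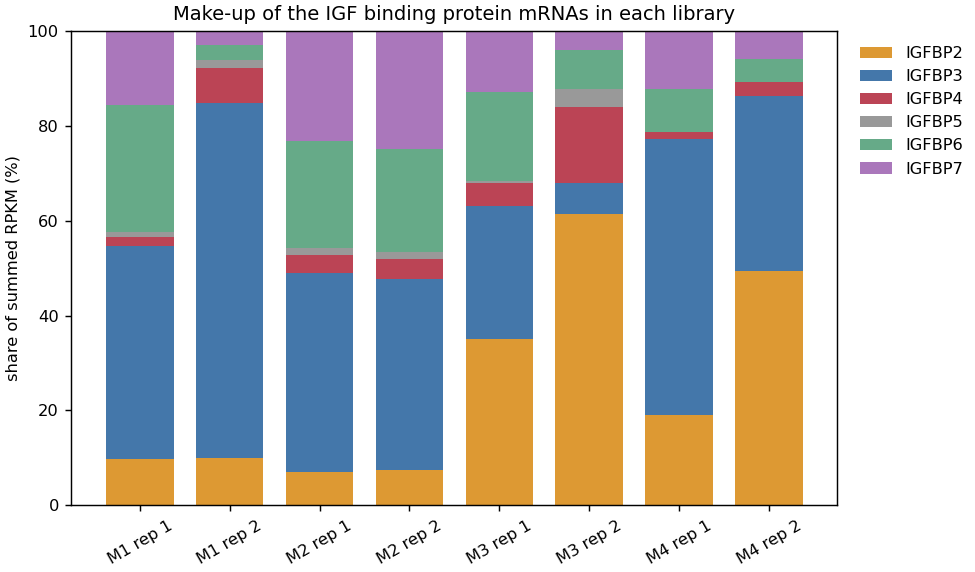
Share of each IGF binding protein mRNA in the summed RPKM of IGFBP1 to IGFBP7, in percent, for each library (IGFBP1, at most 0.0245%, is not drawn). IGFBP2 made up 19.1% to 61.4% in the M3 and M4 libraries and at most 10.0% in those of M1 and M2.

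The ligands of these receptors were at or near 0. INS had 0 counts in all 8 libraries, IGF1 had 0 counts in 6 of them and at most 0.0244 CPM, and IGF2 reached 0.0589 CPM in M2 replicate 1 and 0.0897 CPM in M4 replicate 2 and was at 0 in the other 6. A count of 0 allows up to 0.0279 to 0.0431 CPM, depending on the library, and covers counting error only. IGFBP5, the neighbour of IGFBP2, was named after its values were seen. It had 2.70 and 10.2 CPM (M1), 5.54 and 5.56 (M2), 5.42 and 18.1 (M3) and 0.0617 and 0.0256 (M4), the last being 7 and 2 counts. It was called lower in M4 than in M1 (log2 -7.08 ± 0.999 SE, adjusted p = 0.00227, edgeR). IGFBP2, beside it on the chromosome, did not pass in that comparison.

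Of 80 listed genes around the receptors, 79 were in the table and 70 were tested. These lists too were chosen with earlier results of these data known, so their shares are descriptive only. In M2 against M1, 4 of them were called (2 higher and 2 lower), in M3 against M1 12 (4 higher and 8 lower), and in M4 against M1 25 (10 higher and 15 lower). These are 5.71%, 17.1% and 35.7% of the tested genes of the lists, beside 3.37%, 13.5% and 20.7% of all genes. Against M2, 6 were called in M3 (8.57%, beside 4.15% of all genes) and 20 in M4 (28.6%, beside 13.9%), and in M4 against M3 10 were called (14.3%, beside 10.3%). With the libraries exchanged the counts against M1 were 0, 3 and 13. Without M2 replicate 1 or M2 replicate 2, M2 against M1 had none, M3 against M2 none and M4 against M2 8. Without M1 replicate 2, M2 against M1 had 9. Without M4 replicate 1 and without M4 replicate 2, M4 against M2 had 10 and 11, and M4 against M3 4 and 5.

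The FOXO factors and genes they induce were the list with the most calls in 1 direction. None of its 10 tested genes was called higher against M1, and 2 in M2, 4 in M3 and 7 in M4 were called lower, beside 1.11%, 5.51% and 11.2% of all genes. With the libraries exchanged these counts were 0, 1 and 3, and the number of all genes called, in either direction, went from 622 to 0 in M2, from 2494 to 219 in M3 and from 3821 to 1559 in M4. The median log2 difference of the list was -1.15 in M4 against M1, beside -0.017 for all genes. SESN3, a stress-induced inhibitor of mTORC1, was at 26.4 and 36.4 CPM (M1), 25.6 and 29.9 (M2), 13.5 and 24.3 (M3) and 1.82 and 1.69 (M4) (M4 against M1 -4.16 ± 0.328 SE, adjusted p = 0.000256). BCL6, a transcriptional repressor, was at 104.5 and 64.4 CPM in M1 and 12 and 9.40 in M4 (-2.98, adjusted p = 0.000684). BCL2L11, which encodes the pro-death protein BIM, was at -1.57 (adjusted p = 0.00736), and SESN1 was at -1.22 (adjusted p = 0.00471). With the libraries exchanged, BCL6 was at -2.55 (adjusted p = 0.0831) and BCL2L11 at -1.28 (adjusted p = 0.0725), no longer called. BCL2L11 also lost its call without M4 replicate 1 (-1.33, adjusted p = 0.0533). FOXO1 itself was at 39.3 and 26.6 CPM (M1), 34.5 and 32.9 (M2), 12.4 and 7.59 (M3) and 13.7 and 17.2 (M4). Its log2 difference from M1 was -1.72 in M3 and -1.09 in M4 (adjusted p = 0.00614 and 0.0213, edgeR). The factors FOXO3 (0.331, adjusted p = 0.359) and FOXO4 (-0.675, adjusted p = 0.0523) were not called in M4 against M1.

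In the list of PI3 kinase, AKT and mTOR genes, 8 of 26 were called in M4 against M1 (30.8%, beside 20.7% of all genes), 4 in each direction. PIK3R1, the main regulatory subunit of PI3 kinase that docks on IRS proteins, was at 166.2 and 201.1 CPM (M1), 173.9 and 173.2 (M2), 55.0 and 74.5 (M3) and 17.5 and 22.0 (M4). It was 9.32-fold lower in M4 than in M1 (log2 -3.22 ± 0.210 SE, adjusted p = 0.00016, edgeR) and 2.84-fold lower in M3 (-1.51, adjusted p = 0.0027). The other regulatory subunits PIK3R2 (-1.66, adjusted p = 0.00213) and PIK3R3 (-2.13, adjusted p = 0.000229) were also lower in M4. DEPTOR, an inhibitor of mTOR, was at 9.13 and 27.5 CPM in M1 and 0.740 and 1.23 in M4 (-4.22, adjusted p = 0.00362), and at -2.98 (adjusted p = 0.0537) with the libraries exchanged.

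Among adaptors and receptor regulators, 3 of 15 were called in M4 against M1 (20%), a share at that of all tested genes (20.7%). GRB10, which binds IGF1R and INSR and restrains their signal, was at 29.0 and 17.5 CPM in M1 and 55.4 and 63.4 in M4 (log2 1.35, adjusted p = 0.00629, edgeR). SOCS1, an inhibitor of cytokine and insulin signalling, was at 0.459 and 0.256 CPM in M1 and 3.22 and 3.11 in M4 (3.14, adjusted p = 0.00709). SH2B1, an adaptor that enhances insulin receptor signalling, was at 46.1 and 51.2 CPM in M1 and 26.3 and 22.0 in M4 (-1.01, adjusted p = 0.0028). That value was near the 2-fold limit, and the call was lost without M1 replicate 2 (-0.93) or M4 replicate 2 (-0.86), under DESeq2 (-0.99), with its size factors and with the libraries exchanged (-0.74).

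Of 6 genes for proteases of the binding proteins and their inhibitors, 4 were called in M4 against M1, 2 in each direction, beside 9.48% of all genes called higher and 11.2% called lower. STC1 and STC2 encode inhibitors of PAPPA. STC1 was at 14.1 and 65.2 CPM (M1), 44.1 and 42.0 (M2), 124.7 and 137.2 (M3) and 7.02 and 7.93 (M4) (M4 against M1 -2.41, adjusted p = 0.022, edgeR). Without M1 replicate 2 the difference was -0.92, without M4 replicate 1 it was -2.31 (adjusted p = 0.111) and without M4 replicate 2 it was -2.48 (adjusted p = 0.108), none of them called, and the call was also lost with the 2 lines fitted alone. STC2 was at 18.9 and 34.0 CPM in M1 and 66.5 and 57.6 in M4 (1.23, adjusted p = 0.0121), and was not called without M1 replicate 1 (0.89), without M4 replicate 1 (1.13, adjusted p = 0.0623) or with the libraries exchanged (0.79). HTRA1, a serine protease, was at 53.7 and 113.0 CPM in M1 and 36.8 and 20.7 in M4 (-1.54, adjusted p = 0.0328). Its call was lost without M1 replicate 2 (-0.90, adjusted p = 0.152) or M4 replicate 2 (-1.16, adjusted p = 0.17), and with the 2 lines fitted alone, the libraries exchanged or both M2 libraries left out. IGF2BP2, which binds IGF2 mRNA, was at 46.4 and 45.1 CPM (M1), 57.7 and 56.2 (M2), 165.5 and 131.9 (M3) and 163.9 and 152.1 (M4) (1.70 in M3, adjusted p = 0.000647, and 1.79 in M4, adjusted p = 0.000304). Of 10 genes of mannose 6-phosphate trafficking, the other work of IGF2R, only CTSL passed in M4 against M1, higher by 1.04 (adjusted p = 0.000978), a call lost with the libraries exchanged.

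**Figure D5:**
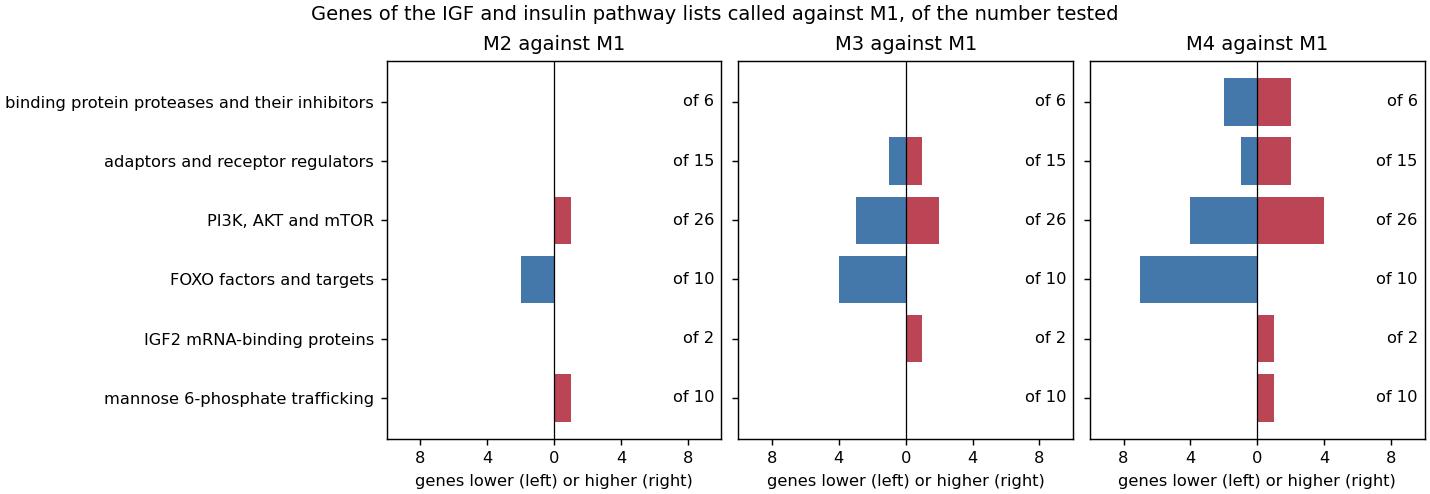
Number of genes of 6 pathway lists called lower (left of 0) or higher (right of 0) than in M1, by line, with the number tested in each list. The FOXO list had calls to the lower side alone, with 2, 4 and 7 of 10 in M2, M3 and M4.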

How the data were processed

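The deposited values are expected counts per gene, which the authors obtained with Trimmomatic (trimming), STAR (alignment to hg19) and STAR/RSEM (counting, GENCODE release 19) from paired-end reads of poly A+ RNA. They are not normalized, and tool versions and the strand setting are not given in the sources used here. From 12.0% to 13.8% of values per library are not whole, and all were rounded. The lines and replicate numbers came from the sample labels, and the members and gene lists were chosen with earlier results of these data known.

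A single edgeR model (version 4.0.16, R 4.3.3) covered the 8 libraries, with a term for each line, TMM scaling, filterByExpr and robust quasi-likelihood F tests. P-values were adjusted by Benjamini-Hochberg over the 18431 genes kept. Calls needed both an adjusted p below 0.05 and a log2 change beyond 1 in size. Standard errors were derived from F. On simulated counts for M4 against M1, 81 of 100 genes changed by a log2 of 2 and 93 of 100 changed by 3 were called, with 18 false calls among 17819 genes. The simulation gave every line the same spread per gene, unlike the real libraries, and left the genes with the lowest means unchanged. Its rates therefore need not hold for these data. The alternatives were the exchanged libraries, each replicate left out, DESeq2 1.42.0, its size factors, no filter, no fold threshold, the 2 compared lines alone, and a replicate block. Leaving out both M2 libraries was added after seeing the data. Where 1 library was left in a line, it was assumed to vary like the others.

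Positions, exon numbers and canonical transcript lengths (for RPKM) came from GENCODE release 44 mapped to GRCh37. Named pathway genes are up to 4 per list with the largest change among those called in M4 against M1 (M3 against M1 where fewer than 2 were called) and with both replicates of the higher line at 100 counts or more. FOXO1, FOXO3, FOXO4, PIK3R2, CTSL and IGFBP5 were added after their values were seen. TXNIP and PECAM1 were not analysed here. One gene that this rule names is left out of the text. Python 3.11.15, pandas 2.3.3, numpy 2.4.6 and matplotlib 3.10.9 were used for the rest. The depth of 69669970 to 107350344 counts sets the counting error, and intervals and floors cover that error only. The study names the replicates biological, and with 2 per line the p-values rest on a spread shared by all lines.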

Additional observations from a re-analysis of the deposited data

Results flagged for a closer look

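In 3 genes the change against M1 differed between M4 and M3 by the test of that difference, which is M4 against M3 itself because M1 drops out (edgeR, adjusted over all genes). The difference was -2.23 for IGFBP2 (adjusted p = 0.0101), -3.75 for IGFBP4 (adjusted p = 0.0314) and 1.35 for INSR (adjusted p = 0.0497) on the log2 scale. Both libraries of M4 lay on the same side of both M3 libraries in all 3 genes, as they did for 60.2% of all tested genes. The call held in 10 of 11 alternatives for IGFBP2, in 6 of 11 for IGFBP4 and in 5 of 11 for INSR. Neither IGFBP4 nor INSR was called against M1 in M3 or M4. M4 and M3 were grown in the same medium, so EGF did not differ between them.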

How the results depend on the processing

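Scaling by size factors kept every call among the 10 genes. DESeq2 called 4 members in M4 against M2, 4 in M4 against M3 and 7 pathway genes in M2 against M1. With no filter on low counts, the members called were 1, 6 and 5 in M2, M3 and M4 against M1, 7 in M4 against M2 and 5 in M4 against M3, and the pathway genes 8 in M2 against M1 and 11 in M3 against M2. With the 2 lines fitted alone, 6 members were called in M4 against M2. With no fold threshold, 25 pathway genes were called in M3 against M1 and 17 in M4 against M3. Without both M2 libraries, 1 member was called in M4 against M1 and 1 in M4 against M3.

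With the libraries exchanged, the pathway genes called were 0 in M2 against M1, 3 in M3 against M1, 13 in M4 against M1, 2 in M3 against M2 and 6 in M4 against M3. The log2 difference then changed sign in M2 against M1 for IGF2R (-0.20), INSR (0.028), IRS2 (-0.43), IGFBP2 (0.76), IGFBP3 (1.13), IGFBP4 (1.66), IGFBP6 (-0.60) and IGFBP7 (-0.19), in M3 against M1 for IGFBP3 (0.31), DEPTOR (0.43) and SOCS1 (-0.13), in M3 against M2 for IGFBP3 (-0.82) and IGFBP7 (0.50), and in M4 against M2 for IGF1R (0.038). None of these passed in either assignment. The cause was not tested.

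Replicate numbers did not pair the libraries: the correlation of the replicate differences ran from -0.0439 to 0.157 over the 6 comparisons. With a replicate block, the members called were 0, 3, 2, 3, 4 and 4 in M2, M3 and M4 against M1, M3 and M4 against M2, and M4 against M3, the pathway genes called were 4, 11, 23, 7, 20 and 10, and IGFBP3 in M3 against M2 moved to -0.17. The block added the calls of IGFBP6 in M4 against M2 (-2.57, adjusted p = 0.0193) and M4 against M3 (-2.60, adjusted p = 0.0236), and HTRA1 in M4 against M1 was no longer called (-1.59, adjusted p = 0.0525). It changed no other call of a named gene.

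Leaving out 1 library at a time, the members called ran 0 to 1 in M2 against M1, 3 to 4 in M3 against M1, 1 to 3 in M4 against M1, 0 to 3 in M3 against M2, 0 to 1 in M4 against M2 and 0 to 4 in M4 against M3, and the pathway genes called 0 to 9 in M2 against M1, 12 to 15 in M3 against M1, 18 to 24 in M4 against M1, 0 to 5 in M3 against M2, 8 to 11 in M4 against M2 and 4 to 10 in M4 against M3. The log2 differences that changed sign are these. In M2 against M1, IRS2 ran from -0.31 to 0.45, IGFBP2 from -1.14 to 0.050, IGFBP3 from -1.54 to 0.36 and IGFBP4 from -1.55 to 1.62. In M3 against M1, IGF1R ran from -0.72 to 0.28, IGFBP3 from -3.10 to 0.50, IGFBP6 from -0.13 to 2.65, IGFBP7 from -0.59 to 2.25, DEPTOR from -1.65 to 0.19, SOCS1 from -0.81 to 0.88 and IGFBP5 from -0.24 to 2.13. In M4 against M1, IGFBP3 ran from -2.11 to 0.035, IGFBP4 from -3.14 to 0.011 and IGFBP7 from -1.49 to 0.53. In M3 against M2, IGF1R ran from -0.95 to 0.055, INSR from -1.0 to 0.27, IGFBP3 from -2.23 to 1.00, IGFBP6 from -0.99 to 1.30 and IGFBP7 from -2.22 to 0.62. In M4 against M2, IGF1R ran from -0.17 to 0.085 and IGFBP3 from -1.24 to 0.26. In M4 against M3, IGF1R ran from -0.10 to 0.90, IGFBP3 from -1.38 to 1.90 and IGFBP7 from -2.93 to 0.31.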

Other observations

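For the 3 genes among the 10 with the widest range of line means, the tested genes with the most similar pattern were found by Pearson's r of log2(CPM + 0.01) over the 8 libraries. The libraries share lines and replicates, so r describes the pattern only. IGFBP4 was most like DZIP1L (r = 0.981), TRIB2 (r = 0.972) and LINC02609 (r = 0.97). TRIB2 was at 11.3 and 37.6 CPM (M1), 25.2 and 23.0 (M2), 47.2 and 68.4 (M3) and 8.73 and 16.1 (M4), so it shared the wide M1 spread of IGFBP4. IGFBP2 was most like FRGCA (r = 0.987), HOXC10 (r = 0.978) and RASGRP1 (r = 0.978). LINC02609, FRGCA and HOXC10 reached at most 0.402, 0.834 and 0.873 CPM in any library, so their r rests on low counts. RASGRP1 was at 5.43 and 5.32 CPM in M3 and at most 0.695 CPM in every other library. IRS1 was most like ZNF324 (r = 0.988), ARMCX5 (r = 0.987) and C21orf91 (r = 0.986), whose levels differed far less between lines than those of IRS1, with ZNF324 at 16.1 to 17.1 CPM in M1 and M2 and 8.81 to 12 CPM in M3 and M4.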
